A study of Drosophila melanogaster with 6 samples.

Results

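Narrow Pcl-only regions are short stretches of the fly genome that both Polycomblike (Pcl) replicates called as bound and neither Jarid2 replicate did. Peaks of the 4 deposited lists were merged where they overlapped or touched, which gave 7007 regions over the whole genome. Members were chosen by their calls and their width, both of which are measured values. They had to be under 1000 bp wide, lie on 2L, 2R, 3L or 3R, hold peaks of Pcl A and Pcl B, and hold none of Jarid2 A or Jarid2 B. The 3 windows of 3R that are dense in peaks, at 2.4 to 2.9, 12.4 to 12.9 and 17.1 to 17.5 Mb, were left out. The rule kept 755 of the 7007 regions, which is 14.8% of the 5094 merged regions on these arms outside the windows. With 1 Pcl list alone deciding, there would be 2149 such regions without Pcl A and 2932 without Pcl B. A further 149 regions met every other criterion but lay inside the windows. Since the calls made the members, their folds and widths are given as descriptions without a test.

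The series mapped binding of a pair of Polycomb accessory proteins by chromatin immunoprecipitation and sequencing in Drosophila melanogaster embryos aged 12 to 24 h. Pcl immunoprecipitates (replicates A and B) came from embryos expressing BioTAP-tagged Pcl, and Jarid2 immunoprecipitates (replicates A and B) from embryos expressing BioTAP-tagged Jarid2. BioTAP is an affinity tag that allows a tandem purification, here first on IgG and next on streptavidin. Each protein also had 1 input, which has no peak list here and entered no comparison. All groups are whole embryos of one age, so a site bound in few cells and a site bound weakly in many cannot be told apart. The labels name no strain, promoter or insertion site for the tagged proteins. Nothing states whether replicates came from separate collections of embryos. The list names carry another lane label for each protein, and an effect of lane cannot be told apart from one of protein.

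Pcl is a subunit of variant forms of Polycomb repressive complex 2, the enzyme complex that places methyl groups on lysine 27 of histone H3. In flies this complex is drawn to short DNA elements called Polycomb response elements, and the mark it places spreads over broad domains that keep developmental genes silent. Jarid2 is an accessory subunit of another variant form of the same complex. A peak list of Pcl can hold both sharp sites and fragments of broad domains.

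How deeply each library was sequenced is unknown, because a peak list gives no read totals. Pcl A held 5173 peaks and Pcl B 3917, while Jarid2 A held 1916 and Jarid2 B 1055. Coordinates are 1-based on dm3 (Release 5), the build named in the submitters' processing notes. The gene table at hand is one of Release 6, so no genes are named at the regions and no sequence is shown.

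Over all single peaks of the whole Pcl lists the median folds were 3.09 (A) and 4.06 (B). The median of the members lay above that value in Pcl A and below it in Pcl B. The whole lists cover every chromosome and hold the members' own peaks. The 351 wide Pcl-only regions, of 1000 bp or more, had medians of 5.31 in Pcl A and 5.53 in replicate B. Fold enrichment, the linear ratio that the authors' peak caller gave at each peak, had a median of 3.29 in Pcl A, and the lowest and highest members there were at 1.73 and 11.8. In Pcl B the median was 3.83, with a lowest value of 2.27 and a highest of 13.9. The quartiles were 2.79 and 3.94 in Pcl A and 3.44 and 4.37 in Pcl B. Where a list had several peaks in a region, the highest fold was taken. Of the 755 members, 677 held exactly 1 peak in each Pcl list and 78 held more than 1 in at least one of them. The median −log10 q, the significance after the caller's own adjustment, was 6.39 in Pcl A and 4.45 in replicate B.

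Across the 755 members the folds of Pcl A and Pcl B had a Spearman rho of 0.31, and log2 folds had a Pearson r of 0.45. These are descriptions over regions that share their libraries, and both lists cut off weak peaks. The rho was 0.82 over the 351 wide Pcl-only regions and 0.68 over all 1258 regions with both Pcl lists. It moved with the width limit, to 0.16 among members under a limit of 500 bp and to 0.49 under one of 2000 bp, so its size depends on where the width was cut. Fold was higher in Pcl B than in Pcl A at 563 members, or 74.6%, with a median ratio of B to A of 1.16. Many folds were identical between members. In Pcl B 443 members shared their exact fold with at least one other member, and 42 of them stood at 4.06. In Pcl A 364 members shared their fold with another.

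**Figure D1:**
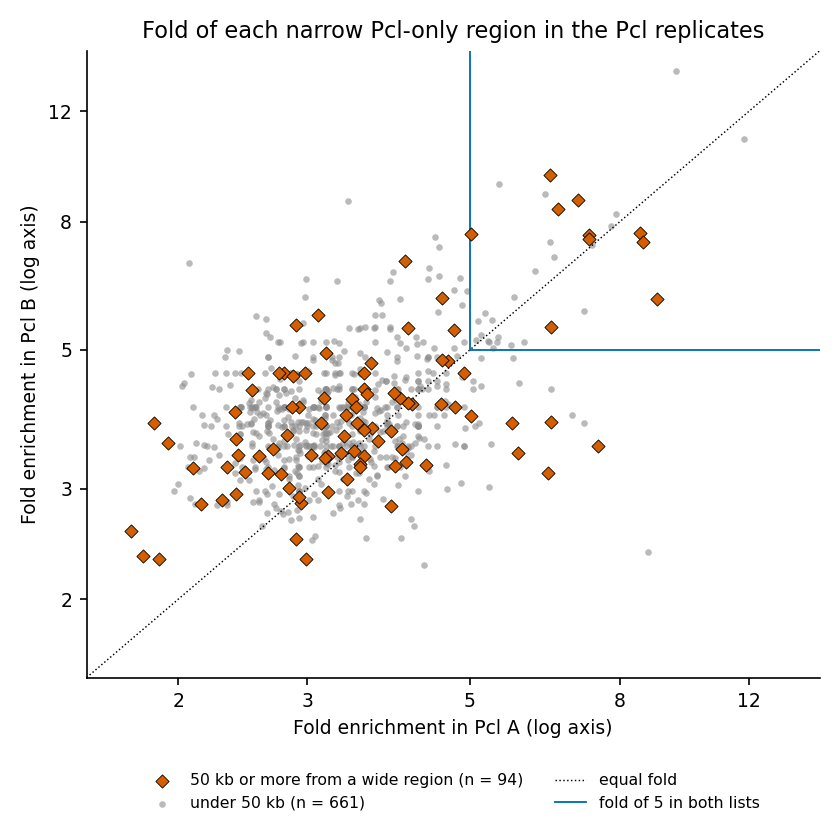
Fold enrichment of the 755 narrow Pcl-only regions in Pcl A (x) and Pcl B (y), both on log axes, with 1 point per region. Diamonds are the 94 regions at 50 kb or more from a wide region and grey points the other 661. The 10 diamonds in the upper right corner, inside the lines at a fold of 5, are the isolated strong regions.

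A member was called strong where its fold was at least 5 in both Pcl lists. This held for 35 of the 755 members, or 4.64% (Wilson 95% interval 3.35 to 6.38%, counting error only). Among all 1258 regions with both Pcl lists on these arms outside the windows, 24.0% were that strong. Median fold and the strong share both rose over the width classes of the members, so the strong share depends on where the width was cut. Among the 155 members of 750 bp or more, 19 were strong, and among the 43 members under 250 bp none was. The median fold was 3.95 in Pcl A and 4.19 in replicate B in the widest of these classes, and 2.79 and 3.69 in the same lists in the narrowest. Peaks of Pcl A were the longer ones. The base pairs called within a member had a median of 432 bp in Pcl A and 248 bp in replicate B.

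The strongest member on 2R, and jointly the strongest of all by mean rank of fold, was 2R:18933366-18934144. Its fold was 9.54 in Pcl A and 13.9 in replicate B, and its summits lay 12 bp apart. It lies 0.51 kb from a wide region and 2.82 kb from the nearest Jarid2 A peak. The joint first was 3R:25533850-25534808, the strongest on 3R, with a fold of 11.8 in Pcl A and 10.8 in replicate B. It lies 13.9 kb from a wide region and belongs to a chain of 9 members over 15.7 kb, the nearest of which is 341 bp from a wide region. In that chain the folds of the members ranged from 2.15 to 11.8 in Pcl A and from 2.78 to 10.8 in Pcl B, and no other member of it was strong. The strongest on 3L was 3L:10282102-10282989, at a fold of 7.90 in Pcl A and 8.24 in replicate B, 0.194 kb from a wide region. On 2L it was 2L:3685461-3686013, with 7.78 in Pcl A and 7.87 in replicate B, 1.83 kb from a wide region. The last of the 12 strongest members that was under 50 kb from a wide region was 3L:12288936-12289665, with a fold of 7.33 in Pcl A and 7.36 in replicate B at 7.11 kb. The other 7 of those 12 lay 50 kb or more from any wide region and are described with the isolated sites.

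At some members the Pcl replicates gave unlike folds. The largest ratio of B to A was at 2L:19083196-19084145, with a fold of 2.07 in Pcl A and 6.88 in replicate B. Next came 3L:7948211-7948775, with 3.41 in Pcl A and 8.65 in replicate B, and 2L:11386074-11386292, with 2.55 in Pcl A and 5.66 in replicate B. At the other end stood 2R:16843576-16844142, with 8.76 in Pcl A and 2.38 in replicate B. The next were 3R:7786564-7786892, with 7.47 in Pcl A and 3.52 in replicate B, and 3R:8173303-8173836, with 6.39 in Pcl A and 3.18 in replicate B. In these 3 members with high Pcl A folds the summits of the replicates lay 15, 7 and 7 bp apart. The last pair stand 282 kb and 65.9 kb from the nearest wide region. None of these 6 members was strong by the rule, which asks for a fold of 5 in both lists.

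The width limit cuts through a continuous range. The widest members were 2L:15109883-15110879 at 997 bp, 3L:10302267-10303262 at 996 bp and 3L:9027473-9028466 at 994 bp. Their folds were 3.20, 5.47 and 2.99 in Pcl A and 4.30, 9.19 and 6.49 in Pcl B, in that order. Just outside the limit were 2L:6548103-6549106 and 2R:7412649-7413652 at 1004 bp each and 2L:6817118-6818123 at 1006 bp. These had folds of 7.51, 2.92 and 11.1 in Pcl A and 9.64, 3.81 and 11.01 in Pcl B, in that order. Neither side of the limit was uniformly stronger than the other.

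The members were set against the wide regions, which are merged regions of 1000 bp or more with both Pcl lists on the 4 arms, whatever their Jarid2 peaks. There were 615 of these, the windows of 3R included. The median distance, from edge to edge, was 2.27 kb, and 496 members, or 65.7%, had a wide region within 5 kb. Over all 1258 regions with both Pcl lists outside the windows the share was 69% and the median 1.72 kb, so closeness to a wide region was not particular to the members. The values also depended on how regions were cut. With gaps of up to 1 kb merged, 37.3% of the members were within 5 kb and the median was 11.8 kb, and with a width limit of 2000 bp the share was 49.0% and the median 5.21 kb. Without Pcl A the median distance was 4.69 kb. Within 1 kb lay 250 members, or 33.1%. On both sides 167 members had a wide region within 5 kb, and on 1 side 329 had one. Seen from the other side, 374 of the 474 wide regions outside the windows, or 78.9%, had a member within 5 kb, and one had 7. A smaller group lay far away. Of the members 94, or 12.5%, were 50 kb or more from a wide region, and 28 lay at 20 to 50 kb. The far share was 37.3% with gaps of up to 1 kb merged, 20.6% with peaks of q at or below 1e-05, and 22.6% when only wide regions without Jarid2 were counted.

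The median distance of the members, 2.27 kb, can be set beside those of other classes on the same arms. It was above the 1.72 kb of all regions with both Pcl lists. The narrow regions found in Pcl A alone numbered 2031, with a median of 3.44 kb, and those in Pcl B alone numbered 373, with 4.78 kb. The 351 wide Pcl-only regions were a median of 0.909 kb from another wide region. The 29 narrow regions with both Pcl lists and a Jarid2 peak had a median of 25.7 kb. The share at 50 kb or more was 12.5% of the members, and 13.6% over all 3159 narrow regions without Jarid2 that at least 1 Pcl list called, so lying far out was about as common among members as in that background. These differences were not tested, because the classes are cut from the same calls and neighbouring regions are not independent.

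**Figure D2:**
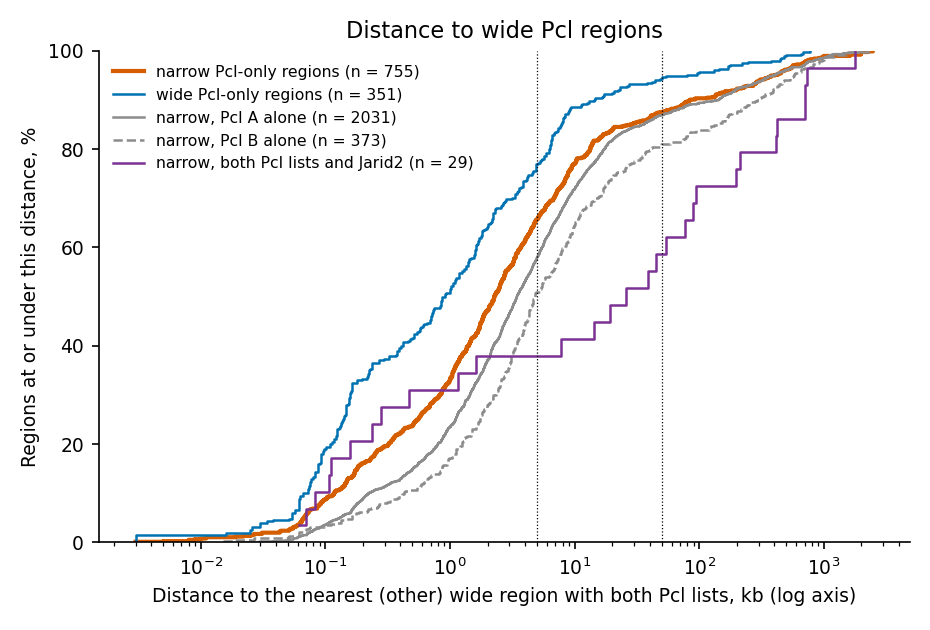
Cumulative share of regions (y, percent) by distance to the nearest wide region with both Pcl lists (x, kb, log axis), for the members and 4 other classes on the same arms. Dotted lines mark 5 and 50 kb, where the member curve stands at 65.7% and 87.5%, above both curves of narrow regions called in a single Pcl list at 5 kb and below that of wide Pcl-only regions, at 76.9%.

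Many members lay close to other members. Joined where they lay within 5 kb of each other, they formed 386 chains, and 538 members, or 71.3%, had at least one other member in their chain. The chain with the most members held 10 at 3L:7944692-7961042, with folds from 2.85 to 5.84 in Pcl A and from 2.97 to 8.65 in Pcl B. None of its members was strong in both lists, and the nearest wide region was 43 bp away. A chain of 9 members at 2L:12671696-12689841 had folds from 2.63 to 4.38 in Pcl A and from 3.16 to 6.49 in Pcl B, with a wide region 27 bp away. Peaks of other Pcl regions were close to most members, but less often to the far ones. At 671 members, or 88.9%, another merged region with a Pcl peak lay within 1 kb, and the median gap over all members was 170 bp. This was so at 42 of the 94 members at 50 kb or more from a wide region, where the median gap was 2963.5 bp. Among the 661 others it was so at 629, with a median gap of 143 bp. Neither the 71.3% nor the 88.9% has a share of other classes beside it here. Neither can therefore be called particular to the members.

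Merging across gaps of up to 1 kb showed which members stayed narrow once close peaks of any list were joined to them. A region that stayed under 1000 bp could still have taken in a close neighbour. After that merging 104 of the 755 members, or 13.8%, still lay in a region under 1000 bp. This was so for 58 of the 94 members at 50 kb or more from a wide region, or 61.7%, and for 46 of the 661 members closer in, or 6.96%. Most members under 50 kb from a wide region were thus narrow only while gaps kept them apart from a neighbour. Part of this contrast holds by construction. The 250 members within 1 kb of a wide region must join it under this merging, and no far member can. No such shares are given here for other classes.

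Strength varied little with distance except at the top. The median fold in Pcl A was 3.38 in members under 1 kb from a wide region, 3.30 at 1 to 5 kb, 3.05 at 5 to 20 kb, 3.00 at 20 to 50 kb and 3.49 at 50 kb or more. In Pcl B the medians over the same steps were 3.80, 3.85, 3.93, 4.06 and 3.82, so the lists did not share an order. The strong share was 2.81%, 3.24%, 5.84%, 7.14% and 10.6% over these steps. At 50 kb or more 10 of 94 members were strong (Wilson 95% interval 5.88 to 18.5%), and under 50 kb 25 of 661 were, or 3.78% (2.57 to 5.52%). The intervals cover counting error only and treat regions as independent, which neighbouring regions are not. No test was made, because both measures come from the calls that chose the members. The median −log10 q at 50 kb or more was 8.92 in Pcl A and 5.25 in replicate B, and under 50 kb it was 6.09 in Pcl A and 4.45 in replicate B.

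The replicates placed the summit of a far member more closely than that of a near one. At 50 kb or more the summits of Pcl A and Pcl B lay a median of 41 bp apart, with quartiles of 22 and 84 bp. Under 50 kb the median was 99 bp, with quartiles of 46 and 177 bp. The summits were within 50 bp of each other at 56 of the 94 far members, or 59.6%, and at 186 of the 661 others, or 28.1%. Over the 5 steps of distance the medians were 104, 104, 85, 92.5 and 41 bp, so the change lay in the last step. Far members had the smaller median in each of the 4 width classes. Among members of 250 to 499 bp the median was 35 bp far out and 79 bp closer in, in the next class up it was 73 bp and 122 bp, and among those of 750 to 999 bp it was 48 bp and 147 bp. With the strong members left out, the medians were 41 bp at 84 far members and 102 bp at 636 closer ones. Each arm showed the same order, with far medians of 33.5 to 55 bp and closer medians of 88 to 119 bp. In members of under 250 bp, of which only 5 were far, the medians were close, at 47 bp far out and 50.5 bp closer in. These sets were chosen after the values were seen, and no test was made. Close summits were not confined to far members. The 25 strong members under 50 kb had a median of 46 bp. The 29 narrow regions with both Pcl lists and Jarid2, 12 of them at 50 kb or more, had 52 bp. The median was 88 bp over the 351 wide Pcl-only regions and 82.5 bp over all 1258 regions with both Pcl lists. The folds of Pcl A and Pcl B were also ordered more alike far out. Spearman rho was 0.54 over the 94 far members and 0.28 over the 661 others, again as a description. The strong members, 10.6% of the far ones and 3.78% of the others, were not left out here.

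**Figure D3:**
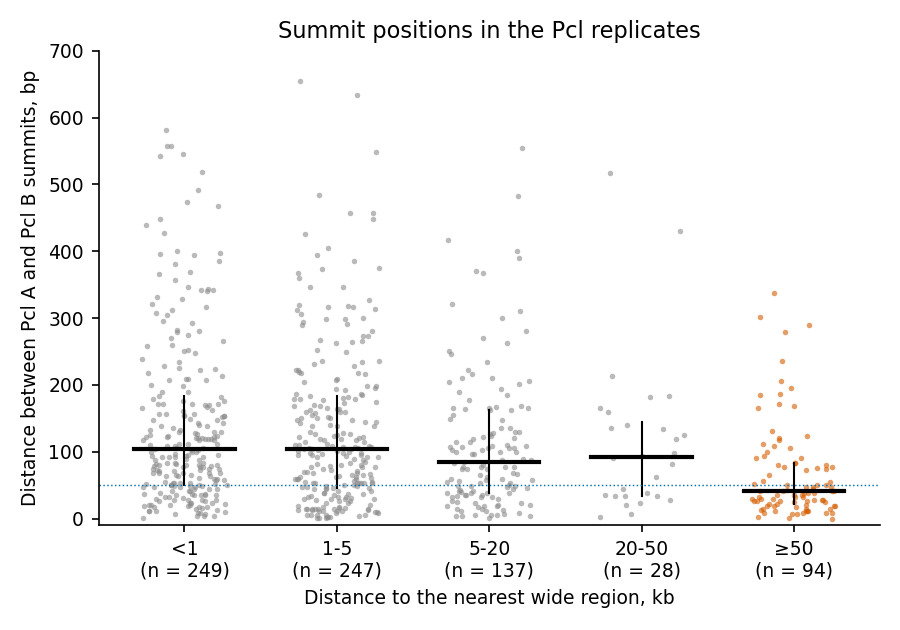
Distance between the Pcl A and Pcl B summits of each member (y, bp) by distance to the nearest wide region (x, kb), with 1 point per region. Thick lines are medians, thin lines span the quartiles, and the dotted line is at 50 bp. The median is 41 bp at 50 kb or more and 85 to 104 bp in the nearer steps.

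Both strong and at 50 kb or more from a wide region were 10 members, the isolated strong sites. Their median fold was 7.14 in Pcl A and 7.63 in replicate B. They fell on every arm, with 2 on 2L, 3 on 2R, 3 on 3L and 2 on 3R. Each held exactly 1 peak in each Pcl list, and their summits lay from 1 to 105 bp apart. Without Pcl A there would be 59 such sites and without Pcl B 16, where the fold of 5 applies to 1 list only.

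Of the 10, 3 had no other Pcl peak of either list within 10 kb. The first was 2R:16444003-16444649, 334 kb from a wide region, with a fold of 7.28 in Pcl A and 7.62 in replicate B. No other Pcl peak lay within 100 kb of its centre, and the nearest was 328 kb away. Jarid2 A had a peak 24.8 kb from it, and Jarid2 B had none closer than 132 kb. The second was 2R:12690533-12691209, the farthest of the 10 at 964 kb, with 7.26 in Pcl A and 7.52 in replicate B. It had 1 other Pcl A peak and 1 other Pcl B peak within 100 kb, the nearer of them 25.1 kb away. The third was 3R:17879243-17879944, 488 kb out, with 8.99 in Pcl A and 6.04 in replicate B. Its neighbours within 100 kb were 1 Pcl B peak, 6 Jarid2 A peaks and 3 Jarid2 B peaks. Jarid2 A and Jarid2 B had peaks 10.99 and 10.96 kb from it.

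A pair of isolated strong sites lay close together on 3L. At 3L:4088439-4089186 the fold was 7.01 in Pcl A and 8.66 in replicate B, with summits 8 bp apart. At 3L:4085673-4086448 it was 8.62 in Pcl A and 7.43 in replicate B, with summits 1 bp apart. They lie 200 kb and 198 kb from the nearest wide region. When gaps of up to 1 kb were merged, the first of the pair stayed at 748 bp and the second grew to 1192 bp. The second then counted as a wide region close to the first, so the first was no longer isolated. The 3 sites with no Pcl peak within 10 kb stayed at 647, 677 and 702 bp. In all, 4 of the 10 stayed under 1000 bp and the rest passed it.

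The remaining 5 each had a peak of another Pcl region within 1 kb. The region 2R:7590153-7591122 had a fold of 8.52 in Pcl A and 7.68 in replicate B, 136 kb from a wide region, and its nearest Pcl neighbour was 62 bp away. At 2L:11206309-11207231 the fold was 6.44 in Pcl A and 9.49 in replicate B, 146 kb out, and merging across 1 kb made a region of 5295 bp. The narrowest of the 10 was 3L:20685587-20685972 at 386 bp, with 6.58 in Pcl A and 8.38 in replicate B, 69.7 kb out. It was the closest of the 10 to Jarid2, with Jarid2 A 2.25 kb and Jarid2 B 2.28 kb away. At 2L:8747411-8748347 the fold was 5.01 in Pcl A and 7.64 in replicate B, 71.5 kb out, and 26 other Pcl A and 16 other Pcl B peaks lay within 100 kb. The last, 3R:25855733-25856350, had 6.45 in Pcl A and 5.44 in replicate B, 238 kb out. It had 2 other Pcl A peaks and no other peak of the remaining lists within 100 kb.

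**Figure D4:**
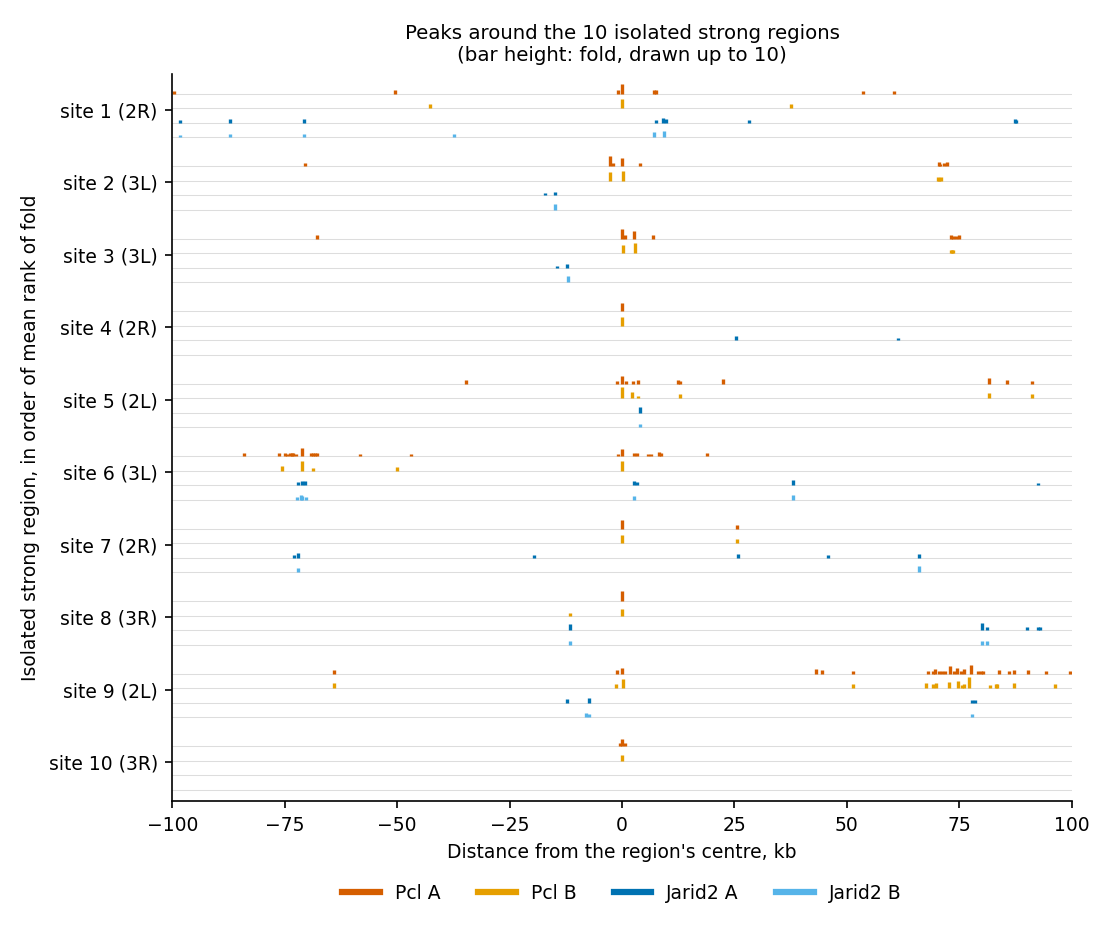
Peaks of the 4 lists within 100 kb of the centre of each isolated strong region (x, kb), with 1 block of 4 rows per region in order of mean rank of fold. Bar height is the fold, drawn up to 10. Sites 4, 7 and 8 (on 2R, 2R and 3R) have no other Pcl peak within 10 kb, and sites 6 and 9 (on 3L and 2L) have the most Pcl peaks around them.

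The 3 members farthest from any wide region lay in one stretch of 2R. This stretch, 2R:11726932-16778468, held no wide region over 5.05 Mb, the longest such gap on the 4 arms, and it held 14 members. Among these were 2 isolated strong sites. The farthest member of all was 2R:14197104-14197524 at 2470 kb, with a fold of 4.17 in Pcl A and 4.10 in replicate B and summits 28 bp apart. A Jarid2 A peak lay 378 bp from it, while the nearest Jarid2 B peak was 19.0 kb away. Next were 2R:14526994-14527419 at 2251 kb, with 2.90 in Pcl A and 2.50 in replicate B, and 2R:13719750-13720044 at 1993 kb, with 2.83 in Pcl A and 3.01 in replicate B. On 3L the longest gap, 3L:15037990-18392360, held 3 members over 3.35 Mb. On 2L a gap of 2.47 Mb at 2L:8881797-11353042 held 16 members, among them 1 strong site.

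Over the arms there were 9.90 members per Mb on 2L, 6.71 on 2R, 7.71 on 3L and 7.46 on 3R, taking the highest peak end of an arm as its length. The length left out in the windows of 3R was not subtracted. The members at 50 kb or more were 29 of 222 on 2L, 18 of 142 on 2R, 26 of 183 on 3L and 21 of 208 on 3R. Median folds ranged from 3.15 to 3.42 in Pcl A and from 3.79 to 3.94 in Pcl B over the arms. These arm medians differed by less than the medians of the lists did.

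The rule removed members that overlap or touch a Jarid2 peak, but not those beside one. The nearest Jarid2 A peak lay a median of 12.8 kb from a member and the nearest Jarid2 B peak 28.3 kb. Jarid2 A held 1916 peaks and Jarid2 B 1055, and whether this accounts for the difference was not tested. Both Jarid2 lists had a peak within 5 kb of 94 members, or 12.5%. By distance to a wide region the share was 23.3% under 1 kb, 8.50% at 1 to 5 kb, 2.19% at 5 to 20 kb, 7.14% at 20 to 50 kb and 10.6% at 50 kb or more. The last 3 of these rest on 3, 2 and 10 members. Wide regions were taken whatever their Jarid2 peaks. A member under 1 kb from one that holds Jarid2 peaks can therefore have them within 5 kb by construction. No such shares are given here for other classes of Pcl regions, so these cannot be called particular to the members. The wide regions beside members were counted for Jarid2 as well. A peak of a Jarid2 list lay in 86 of the 374 wide regions with a member within 5 kb, or 23.0%, and in 37 of the 100 without one, or 37.0%. The difference was not tested. The median width was 1857 bp with a member and 1744 bp without.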

How the data were processed

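ChIP-seq peak lists of 4 immunoprecipitated libraries were used, 1 list per library, with replicates not pooled. Per the submitters' processing notes, Trimmomatic 0.36, Bowtie 1.2.2, deepTools 3.0.2 and MACS2 2.1.1 were used with build dm3. Settings and the control are not given in the sources used here. The deposited fold of a peak is a linear ratio from the authors' caller whose denominator is not named. Beside it the authors deposited −log10 p and −log10 q for every peak, and a score that was not used. Per the labels, chromatin was fixed with 3% formaldehyde for 30 min and DNA of 250 to 500 bp was amplified with 10 to 12 cycles of PCR. Depth is unknown, and it sets which weak sites reach a list.

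Peaks were merged where they overlapped or touched, with Python 3.11.15, numpy 2.4.6, scipy 1.17.1 and pandas 2.3.3. Regions that reach into a window of 3R were left out. Distances run from edge to edge, and a summit is that of the strongest peak of a region in a list. Merging, the member rule and distances were tested on simulated data. The regions named are the 12 strongest by mean rank of fold, the 10 strongest at 50 kb or more, the 3 farthest, the strongest of each arm, the 3 highest and 3 lowest ratios of Pcl B to Pcl A fold, and 3 on either side of the width limit. Chains and stretches were added after their values were seen. The members and classes were chosen with earlier results of these data known. With 2 libraries per protein and members cut from the calls, nothing was tested. Gene annotation and motifs were not analysed here, since the gene table belongs to Release 6.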

Additional observations from a re-analysis of the deposited data

How the results depend on the processing

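Under other settings 123 values of these results were computed again, of which 78 stayed within their limit and 45 moved. Only the Spearman rho could change sign, and it did so under none of the settings. The limits were 1.5 times for a count, the spread between the Pcl lists for a fold and a 95% interval over regions for the rest. The cause was not tested, except where fewer peaks or another limit gives it by construction.

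With gaps of up to 1 kb merged there were 118 members and 3 isolated strong ones. The median distance to a wide region was then 11809 bp, with 37.3% within 5 kb, 37.3% at 50 kb or more and a summit spacing of 78 bp. Peaks with q at or below 1e-05 gave 253 members. Their median folds were 3.93 in Pcl A and 4.60 in Pcl B, rho was 0.44, the distance 3199 bp, 57.7% were near, 20.6% far, and summits 73 bp apart. A width limit of 500 bp gave 384 members and 1 isolated strong one, with rho 0.16, a distance of 1387 bp, 75% near, 10.2% far and summits 67.5 bp apart. At 2000 bp there were 31 isolated strong ones, with rho 0.49, a distance of 5213 bp, 49.0% near and 18.2% far. Keeping the windows of 3R gave 1842 bp and 70.0% near. Counting only wide regions without Jarid2 gave 4146 bp, 53.6% near and 22.6% far. Asking that the Pcl peaks cover 50% of the shorter one gave summits 79.5 bp apart. The far share was 16.2% at 20 kb and 9.67% at 100 kb. Isolated strong members numbered 22 at a fold of 4, 0 at a fold of 8, and 3 with no other Pcl peak within 10 kb.

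Leaving out each library in turn gave 756 to 2932 members, 10 to 59 isolated strong ones, median distances of 2271 to 4687 bp, 51.7% to 65.6% near, and 12.5% to 15.0% far. The Pcl libraries made the large moves. Without Jarid2 A there were 773 members and without Jarid2 B 756. No paired analysis was possible because the results come from no test. Neighbouring genes, the gene list and motifs, planned for an annotation of dm3, were not run. Unknown depth limits every absence from a list.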
